A study of Macaca mulatta with 6 samples.

Results

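Chromosome 19 of the rhesus macaque (Macaca mulatta) held 938721 CpG positions in the deposited methylation table, of 26958235 listed in all. Every listed position whose chromosome is given as 19 was taken, and no measured value chose among them. They made up 3.64% of the autosomal positions on 2.38% of the autosomal span. The study profiled DNA methylation by bisulfite sequencing in peripheral blood mononuclear cells, the lymphocytes and monocytes of the blood. The DNA came from 6 adult females. Of these, 3 stood high in the social order (rank 1) and 3 stood low (rank 5). The table has 12 columns of values without names, and no label ties any of them to an animal. Those columns were not used, so no methylation level is given, ranks were not compared, and what follows describes where the listed CpGs lie.

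A CpG is a cytosine followed by a guanine, the main place where mammalian DNA is methylated. Methylated cytosines mutate readily to thymine, so most of a mammalian genome has lost many of its CpGs. Clusters called CpG islands kept theirs, often at gene starts and mostly without methylation. The macaque chromosome corresponds to human chromosome 19, which is known for its many genes, its clusters of zinc finger genes and its many Alu repeats, short mobile elements rich in CpGs. These points are background and were not measured here. The sources used here do not name the genome build. No sequence or gene annotation on these coordinates was used, so no region below is assigned to a gene or a repeat. Coordinates are 1-based and are those of the table.

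Chromosome 19 was the CpG-densest of the 20 autosomes in each of the 3 ways in which density was counted. From base 33 to base 64391590, a span of 64.4 Mb, it held 14.6 CpGs per kb against 9.40 on the 19 other autosomes together, a ratio of 1.55. On this measure chromosomes 16 and 10 were not far below, at 13.9 and 12.9 per kb. The lead of chromosome 19 over the rest was larger when stretches without a listed CpG were set aside. Without intervals of at least 100 kb that hold no listed CpG, it had 16.9 per kb against 9.63, and chromosome 16, the next densest, had 14.3. Per 1 kb tile with at least 1 CpG, it had 18.7 against 9.97, a ratio of 1.88. These are full counts of the listed positions, and they have no replicate. How a position came to be listed is not stated, and whether listing differs between chromosomes was not tested. The chromosome was picked for its density, so its rank is a description, and no test was made between chromosomes.

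Sparse tiles were few and dense tiles many on chromosome 19. Tiles with 1 to 4 CpGs made up 7.77% of its tiles with a CpG, against 25.03% on the other autosomes and 11.5% on chromosome 16, the lowest of those. Tiles with 5 to 9 CpGs made up 19.03% against 37.9%. For both of these classes chromosome 19 had the lowest share of the 20 autosomes. Tiles with 10 to 19 CpGs made up 36.5% against 26.8%, and here chromosomes 16, 10 and 20 were higher, at 38.1%, 37.6% and 37.5%. Tiles with 20 to 39 CpGs made up 29.5% against 8.88%. Tiles with 40 or more, called dense below, made up 7.20% against 1.40%, and chromosome 16 reached 3.52%. In both upper classes chromosome 19 had the highest share.

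Seen by positions, tiles of 20 to 39 CpGs were the class that held the most CpGs of chromosome 19. These 14782 tiles held 395568 CpGs, or 42.1%, against 22.6% on the other autosomes and 14.99% on chromosome 5, the sparsest. The 18285 tiles of 10 to 19 CpGs held 27.9% against 35.8%, the lowest share for that class on any autosome. The 3607 dense tiles held 21.6% against 8.57%. Tiles of 5 to 9 CpGs held 7.17% against 25.7%, and those of 1 to 4 held 1.20% against 7.31%.

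**Figure D1:**
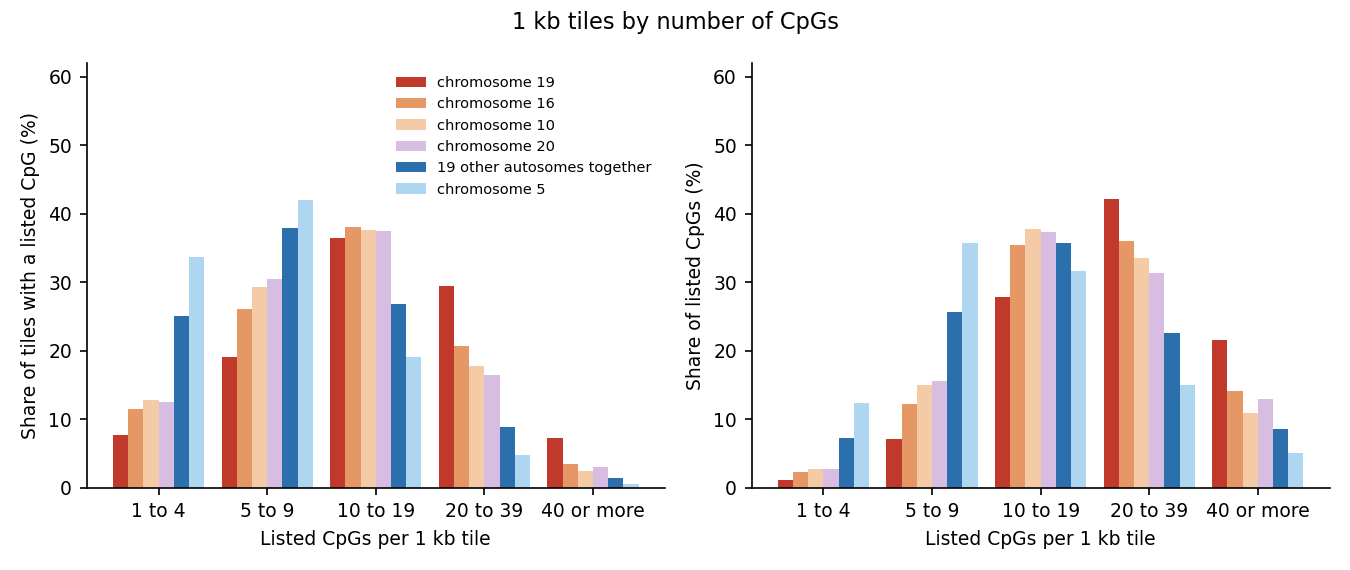
Share of tiles with a listed CpG (left) and of listed CpGs (right), in percent, in 5 classes of 1 kb tiles by their number of CpGs, with 1 bar for each chromosome or set. On chromosome 19 the class of 20 to 39 holds 42.1% of the CpGs, and on the 19 other autosomes together that of 10 to 19 holds the most, 35.8%.

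Tiles of 20 to 39 CpGs carried more of the difference in density than the dense class did. With intervals of at least 100 kb left out, chromosome 19 exceeded the other autosomes by 7.25 CpGs per kb. They contributed 4.93 of these, equal to 68.0% of the difference. Dense tiles contributed 2.82, or 38.9%, and tiles of 10 to 19 contributed 1.26, or 17.4%. The 2 sparse classes contributed negative amounts, -0.50 and -1.27, since chromosome 19 has fewer such tiles. With dense tiles left out, the remaining tiles with a CpG still held 15.8 CpGs each on chromosome 19, against 9.25 on the other autosomes and 13.3 on chromosome 16.

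Neighbouring CpGs were correspondingly close on chromosome 19. Spacing was counted in bases between each CpG and the following one. Spacings of 10 bases or less made up 29.0% against 19.4% on the other autosomes, and those of 11 to 50 bases 43.2% against 35.2%. Spacings of 51 to 200 bases made up 22.8% against 30.6%, and those over 200 and up to 1000 bases 4.75% against 14.3%. For the first 2 classes chromosome 19 had the highest share of all autosomes and for the next 2 the lowest. Spacings over 1000 bases made up 0.219% against 0.412%. Here chromosomes 16, 10 and 20 were lower than chromosome 19, at 0.208%, 0.214% and 0.207%. The median spacing was 24 bases against 42, and the upper quartile was 57 against 121. Counted only from CpGs in tiles that are not dense, the median was 30 bases against 49, and 35 on chromosome 16.

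Along the chromosome, 1 Mb windows had a high outer end, a trough in the middle and an uneven second side. Of 65 windows, 8 held no CpG, all inside an interval of 8.46 Mb without a listed position, from base 23905248 to 32364256. The other 57 windows had from 6.06 to 33.0 CpGs per kb, with a median of 16.6. The first was the densest, at 33.0 from base 1 to 1000000, with 351 dense tiles among its 1000. The second, from base 1000001, had 30.7 and 273 dense tiles. Both lay among the 4 densest of all autosomal windows that span at least 500 kb. The fourth and the third windows followed, at 26.4 and 26.0, and the fifth densest, at 23.2, lay from base 56000001 to 57000000.

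**Figure D2:**
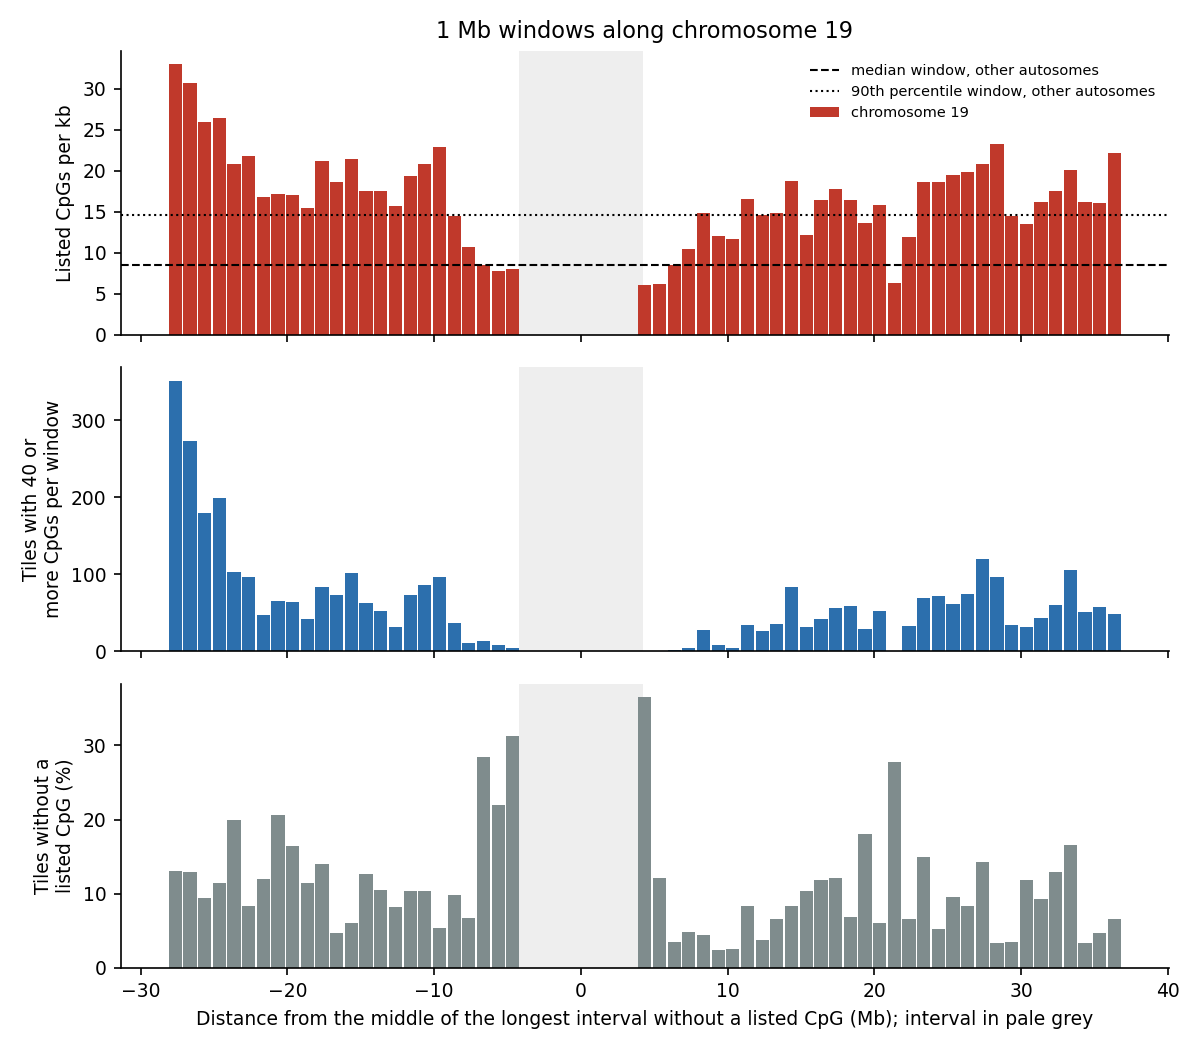
CpGs per kb (top), dense tiles per window (middle) and percent of tiles without a listed CpG (bottom) in the 57 windows of chromosome 19 of 1 Mb that hold a CpG, by distance in Mb from the middle of the longest interval without one. Density is highest at the left end, at 33.0 per kb, and 6.06 at its lowest, beside the interval on the right.

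The interval of 8.46 Mb splits the chromosome into 2 sides that differed in density. The side before it, of 23.9 Mb, held 450067 CpGs, or 18.8 per kb. The side after it, of 32.0 Mb, held 488654, or 15.3 per kb. Dense tiles numbered 90.1 per 1000 tiles before the interval and 45.4 after it. The outermost 5 Mb of the first side had 27.4 CpGs per kb and 221 dense tiles per 1000. In the outermost 5 Mb of the second side there were 17.8 CpGs per kb and 69.8 dense tiles per 1000. These ends have no replicate, and the difference between the sides was not tested.

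The first end of chromosome 19 stood high among chromosome ends, and the last end did not. In the first Mb counted from the first listed CpG, chromosome 19 had 33.0 CpGs per kb, the highest of the 20 autosomes. On the others this value ran from 0.204 on chromosome 7 to 29.3 on chromosome 20, with a median of 17.8. Stretches without a listed CpG are counted in it. On chromosome 7, only 1.5% of the tiles from base 1 to 1000000 held a CpG, and these held 13.6 each. In the last Mb, chromosome 19 had 18.95 per kb and ranked 10, with the others between 9.08 on chromosome 15 and 28.5 on chromosome 16. Away from the ends chromosome 19 was still the densest. With 5 Mb removed at either end and long intervals left out, chromosome 19 had 15.6 CpGs per kb, and the highest of the others was chromosome 16 at 13.1.

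Windows near the long interval were sparse on both of its sides. Before it, the windows from base 18000001 on held 22.9, 14.5, 10.7, 8.58, 7.75 and 8.004 CpGs per kb. The window from base 21000001 includes a shorter interval without a listed CpG, of 116 kb. The last window includes 94.8 kb of the long interval itself and shorter ones of 102.1 and 101.9 kb. Per occupied tile, the last 2 of these windows held 9.92 and 11.7 CpGs, so the value was higher beside the interval. After it, the windows from base 32000001 on held 6.06, 6.16, 8.46, 10.4 and 14.9 per kb. The first of these includes 364 kb of the interval, and its occupied tiles held 9.55 CpGs each. The second, with 87.9% of its tiles occupied, held 7.01 per occupied tile, the lowest value of any window on the chromosome. In the windows that start at bases 32000001 and 33000001 there was no dense tile.

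A second trough stood apart from the interval. The window from base 49000001 to 50000000 held 6.36 CpGs per kb and no dense tile, between neighbours of 15.8 and 11.9 with 52 and 33 dense tiles. In it 72.2% of the tiles held a CpG, and these held 8.81 CpGs each. Among windows with a CpG in at least 80% of their tiles, the 5 sparsest were those from bases 33000001, 34000001, 35000001, 20000001 and 38000001, at 6.16, 8.46, 10.4, 10.7 and 11.7 per kb. All but the fourth of these lie within 7 Mb after the long interval, and the fourth lies before it.

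Most of the chromosome, not a few windows, was denser than the other autosomes. Of its 57 windows, 51, or 89.5%, lay above the median window of the other autosomes, which held 8.53 CpGs per kb. Chromosomes 16 and 10 came near this share, at 84.8% and 81.1%, and chromosome 5 had 22.95%. The value of chromosome 16 was the highest of the others, so this count alone sets chromosome 19 little apart from it. Above 1.5 times that median window lay 44 windows of chromosome 19, or 77.2%, against 17.2% of the 2629 windows of the other autosomes. On chromosome 16 that share was 53.2%, on chromosome 10 it was 51.6%, on chromosome 20 it was 36.3% and on chromosome 5 it was 4.37%. The windows are neighbours on one chromosome and not independent, and no test was made. The 90th percentile of chromosome 19 windows was 2.63 times the 10th, and over the other autosomes together it was 2.52 times. The coefficient of variation was 33.5% on chromosome 19 and 43.4% over the other autosomes, so the 2 measures of relative spread differ in direction.

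**Figure D3:**
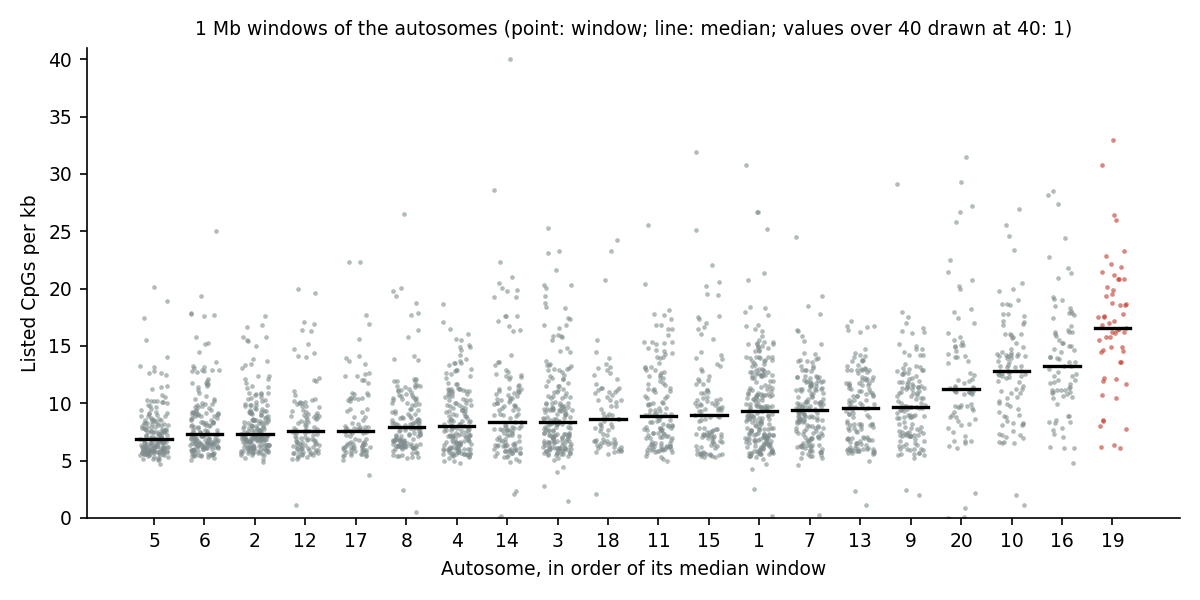
CpGs per kb in each 1 Mb window with a listed CpG (points) and the median window (black lines) of the 20 autosomes, ordered by that median. Chromosome 19, in red, has the highest median, 16.6, and its sparsest windows, near 6.06, overlap those of every other autosome. A single window above 40, a short piece at the end of chromosome 14, is drawn at 40.

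Windows of 100 kb showed the same at a finer scale. Among those with a CpG in at least 80% of their tiles, the 461 on chromosome 19 had a median of 16.97 CpGs per kb and a 90th percentile of 25.8. The 25044 on the other autosomes had a median of 8.26 and a 90th percentile of 15.6. The 3 densest on chromosome 19, at 40.3, 39.8 and 39.3, start at bases 500001, 1200001 and 600001. The 3 sparsest, at 6.12, 6.33 and 6.38, start at bases 33800001, 33900001 and 32800001, after the long interval. The densest window of the other autosomes had 40.4, so the 2 maxima were close.

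Chromosome 19 also had the highest share of tiles without a listed CpG of the 20 autosomes, although it was the densest. They made up 22.2% of its tiles, and 19.1% on chromosome 20, the next highest. Of the 14296 on chromosome 19, 8775 lay in its 4 intervals of at least 100 kb. The 3 shorter of these measured 116, 102.1 and 101.9 kb, after bases 21156817, 23231308 and 23375610, all on the first side within 3 Mb of the longest. Outside such intervals 9.93% of the tiles were without a CpG, against 3.45% on the other autosomes, where chromosome 16 had the most, 4.46%. Among stretches of fewer than 100 such tiles, the difference was largest for those of 5 to 19, which held 40.5 tiles per 1000 against 9.28. Single tiles without a CpG did not show it, at 8.82 per 1000 against 10.01. The median window of chromosome 19 had a CpG in 90.2% of its tiles and that of the other autosomes in 97.3%. Whether these tiles hold sequenced bases, or CpGs that a filter removed, was not tested.

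Dense tiles were more frequent on chromosome 19 but held fewer CpGs each. There were 56.0 per 1000 tiles against 13.2 on the other autosomes, a ratio of 4.26, and 32.7 on chromosome 16. A dense tile held 56.2 CpGs on average, against 61.2, the lowest mean of the 20 autosomes. The densest tile, from base 983001 to 984000, held 158 CpGs, with 90 and 72 in the tiles beside it. The next, from base 959001, held 146 with 54 and 55 beside it. The third rank was shared by tiles from bases 1031001 and 52989001, with 138 each. The first of these had 88 and 34 CpGs in the tiles beside it, and the second had 7 and 25.

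Dense tiles were spread over nearly all windows but unevenly. The 10 windows with the most, 17.5% of the 57, held 45.1% of the dense tiles and 26.2% of the CpGs. The 4 windows with the most, from base 1 to 4000000, held 27.8% of the dense tiles. Of the windows with a CpG, 3 had none, or 5.26%, against 9.32% on the other autosomes. Chromosomes 16, 10 and 11 had lower shares, at 2.53%, 4.21% and 5.19%. The median window of chromosome 19 had 52 dense tiles, against 7 on the other autosomes. A dense tile had no dense neighbour in 45.5% of cases, and on the other autosomes in 45.3%. Stretches of 3 or more dense tiles held 24.2% of the dense tiles against 19.4%, a share that 3 other autosomes exceeded, with chromosome 17 the highest at 25.2%. The longest stretch had 11 tiles with 783 CpGs, from base 1232001 to 1243000. The next had 10 tiles with 559 CpGs, from base 380001 to 390000. Stretches of 8 tiles lay from base 306001 to 314000 and from base 2070001 to 2078000, with 425 and 492 CpGs.

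Around dense tiles, the step down to their surroundings was shallower on chromosome 19. At a distance of 1 kb from a dense tile, the tiles that had a CpG and were not dense themselves held 23.2 CpGs on average, and at 20 kb they held 19.9. On the other autosomes the same values were 20.5 and 14.5, and on chromosome 5 they were 18.4 and 9.98. The ratio of the nearer to the farther value was thus 1.16 on chromosome 19, 1.23 on chromosomes 16 and 20, 1.41 on the other autosomes together and 1.84 on chromosome 5. The share of tiles at 1 kb that were dense was 33.0% on chromosome 19, 31.8% on the other autosomes and 31.7% on chromosome 5. At 20 kb the 3 shares were further apart, at 15.98%, 6.71% and 2.07%. Chromosome 20 came near chromosome 19 there, at 14.3%. At 1 kb chromosomes 20 and 16 exceeded it, at 34.9% and 33.4%. Dense tiles share surroundings where they lie close together, so these means are descriptions.

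**Figure D4:**
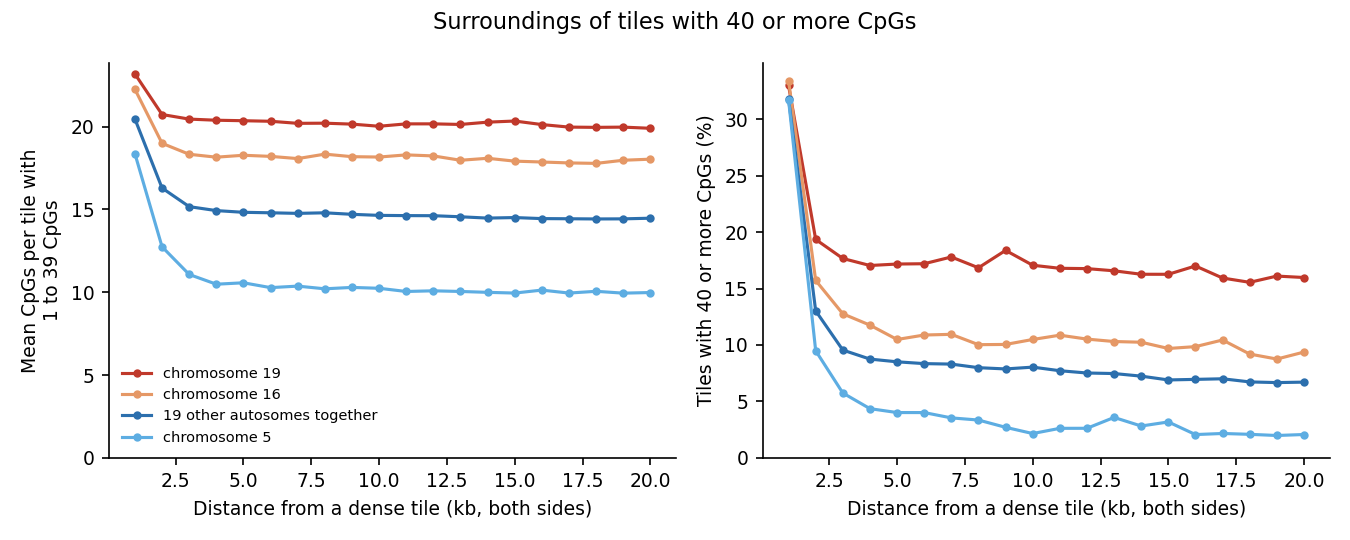
Surroundings of dense tiles at distances of 1 to 20 kb on both sides: mean CpGs in tiles of 1 to 39 CpGs (left) and percent of tiles with a CpG that are dense (right), for chromosomes 19, 16 and 5 and the 19 other autosomes together. The left curve of chromosome 19 falls from 23.2 to 19.9, less than that of chromosome 5, from 18.4 to 9.98.

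Windows rich in dense tiles also had more CpGs in their other tiles. Across the 56 windows of chromosome 19 with at least 500 occupied tiles, the mean number of CpGs in non-dense tiles and the share of dense tiles had a Pearson r of 0.85 and a Spearman rho of 0.95. Across 2584 windows of the other autosomes the values were 0.78 and 0.81. Both measures come from the same positions and the same windows, neighbouring windows are alike, and no p is given. Where non-dense tiles held 12 to 16 CpGs, the 14 windows of chromosome 19 had a median of 37.0 dense tiles per 1000 occupied tiles, and the 330 of the other autosomes had 22.1. Where they held 16 to 20, the 21 windows of chromosome 19 had 76.6 and the 117 others 48.5. The quartiles did not overlap at 12 to 16, with 34.7 as the lower one on chromosome 19 and 30.7 as the upper one elsewhere. At 16 to 20 the lower quartile of chromosome 19, 63.7, lay below the upper one of the others, 66.0. Below 12 the medians were 5.54 over 12 windows and 5.42 over 2096. At 20 or more they were 129 over 9 windows and 150 over 41, with the median of chromosome 19 below that of the others. Both quartiles of chromosome 19 were higher there, at 101 and 225 against 94.0 and 188.

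**Figure D5:**
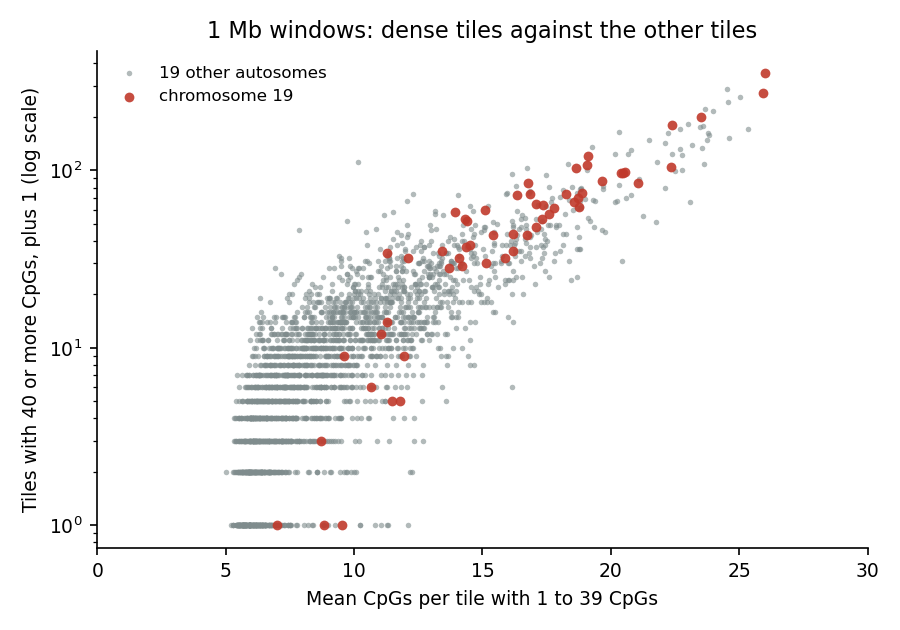
Each point is a 1 Mb window with at least 500 occupied tiles; the horizontal axis gives the mean CpGs in its tiles of 1 to 39 CpGs and the vertical axis its number of dense tiles plus 1 on a log scale. The 56 windows of chromosome 19, in red, run from 0 dense tiles to 351, and both measures rise together in red and grey points.

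Runs of close CpGs resemble CpG islands in their density, although base composition, which is part of the usual definition of an island, was not available. A run was counted where 40 or more CpGs followed each other with no spacing above 50 bases. Chromosome 19 had 1531 runs, or 23.8 per Mb, against 6.70 on the other autosomes and 15.7 on chromosome 16. They held 11.8% of its CpGs against 5.65%, and covered 1.91% of its span against 0.555%. The median distance from one run to the next was 13.98 kb against 43.1 kb, and 6.80% of these distances exceeded 100 kb against 31.5%.

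As with dense tiles, runs on chromosome 19 were many but small. The median run held 61 CpGs in 727 bases, against 67 in 743 bases. Runs of 100 or more CpGs made up 16.3%, the lowest share of the 20 autosomes, against 23.4%. Their rate per Mb was still the highest, at 3.87 against 1.57. Runs held 8.99 CpGs per 100 bases, again the lowest value, with the others between 9.27 on chromosome 20 and 9.84 on chromosome 18. Runs of 200 or more numbered 12.

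The largest run, with 570 CpGs in 5582 bases from base 1232604 to 1238185, was the longest run of any autosome in bases. The next on the chromosome, with 288 CpGs in 2710 bases, lay from base 39188821 to 39191530. The third, with 264 CpGs in 1959 bases from base 982587 to 984545, was the closest packed of the 5 largest, at 13.5 CpGs per 100 bases. The fourth, with 251 in 1941 bases, lay from base 40143253 to 40145193, and the fifth, with 250 in 2606 bases, from base 8277763 to 8280368. The longest stretch without a run reached from base 23197676 to 35198777, or 12.001 Mb. It includes the long interval and, over both sides of it, 28397 CpGs. The next, from base 48750052 to 50031563, was 1.28 Mb long and covers the second trough.

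Orders of spacings that recur across the genome were also more frequent on chromosome 19. The order 24, 20, 4, 8 and 4 bases, read in either direction, occurred 865 times, or 0.921 per 1000 CpGs, against 0.611 on the other autosomes. The order 4, 5, 38, 2 and 4 bases occurred 1446 times, or 1.54 per 1000 CpGs, against 1.09. Both rates were the highest of the 20 autosomes, and chromosome 16 followed with 0.782 and 1.37. Outside dense tiles the rates were 0.976 against 0.635 and 1.599 against 1.13.

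Within the class of tiles where most of these orders lay, the rates were the other way round. In tiles of 20 to 39 CpGs, the first order occurred 1.64 times per 1000 CpGs on chromosome 19 and 2.11 times on the other autosomes. The second occurred 2.60 and 3.73 times. For the second order chromosome 19 was the lowest of the 20 autosomes in this class. The class held 649 of the 865 and 1028 of the 1446 occurrences on chromosome 19. In dense tiles the rates were higher on chromosome 19, at 0.725 against 0.352 and 1.33 against 0.654. The higher rate over the whole chromosome thus stood beside a larger share of its CpGs in the class of 20 to 39, 42.1% against 22.6%.

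Both orders were scarce in the window where the long interval begins and in the windows after it up to 38 Mb. They were not scarce just before these, where the windows from bases 20000001 and 21000001 held 1.59 and 1.87 per 1000 CpGs of the first order. In the 7 windows with a CpG from 23 to 38 Mb, the second order occurred 30 times among 66066 CpGs, or 0.454 per 1000, and no window exceeded 0.579. In the 50 other windows it occurred 1416 times, or 1.62 per 1000, with a median window of 1.48 and a highest of 4.198. The highest was the window from base 21000001 to 22000000, only 2 windows before the lowest, which held 0.125. The first order occurred 15 times in the same 7 windows, or 0.227 per 1000, against 0.974 in the other 50. Its highest value in the 7 windows was 0.605, in the window from base 36000001. That was above some of the other 50, such as the window from base 57000001 at 0.415. Low rates were not confined to these windows. The second trough, from base 49000001, held 0.314 per 1000 of the first order and 0.471 of the second. These 7 windows were singled out after their values had been seen.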

How the data were processed

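Per the labels, DNA from peripheral blood mononuclear cells of 6 macaques was sequenced after bisulfite treatment. Per the submitters' processing notes, the authors used Bismark, a bisulfite read aligner. Its version, the build and the choice of sites are not stated in these sources. The deposited table has no header and 15 columns, split here at any white space. Columns 1 to 3 give chromosome, start and end of each CpG. The 12 other columns carry no names and were not used, so depth is not reported. The planned design had no tests.

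Tiles of 1 kb and windows of 1 Mb start at base 1. Window density is per kb inside the span from first to last CpG. Windows without a CpG were left out. Tile, window, run and order counts were tested on simulated positions, and all 6 quantities were recovered. Python 3.11.15, numpy 2.4.6, pandas 2.3.3, scipy 1.17.1 and matplotlib 3.10.9 were used. The chromosome, its classes, the orders of spacings and the rule for named regions (the densest and sparsest windows, largest runs, densest tiles, longest dense stretches and long intervals) were chosen with earlier results of these data known. The surroundings of dense tiles, the grouping of windows by their non-dense tiles, the 100 kb windows and the comparison of chromosome ends were added after the table was opened.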

Additional observations from a re-analysis of the deposited data

How the results depend on the processing

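Every ratio of chromosome 19 to the other autosomes stayed above 1 in each alternative run listed here. Rates of the 2 orders of spacings by tile class were not among these runs, and their ratios lay on both sides of 1. They were 0.776 and 0.697 in tiles of 20 to 39 CpGs, and 2.06 and 2.03 in dense tiles. The ratio of CpG density, 1.55, was 1.75 without intervals of 100 kb or more, 1.88 per tile with a CpG, 1.71 per such tile with dense tiles left out, and 1.57 with the X chromosome among the others. The ratio of dense tiles, 4.26, was 3.59 in tiles of 500 bases with 20 or more CpGs, 4.87 in tiles of 5 kb with 200 or more, and 5.16 per tile with a CpG. Dense tiles held 21.6% of the CpGs, and 29.3% and 9.50% with these 2 tile sizes. Tiles shifted by 500 bases gave 27.5%, 42.3% and 21.8% for the 3 upper classes. The share of windows above the median of the others, 89.5%, was 96.1% where at least 80% of the tiles held a CpG. The ratio of runs, 3.55, was 2.86 with spacings up to 30 bases, 3.12 with 20 or more CpGs and 2.46 with 100 or more. Per Mb of span, the ratios of the 2 orders of spacings were 2.34 and 2.20, against 1.51 and 1.42 per 1000 CpGs. The other 7 values stayed within the 95% interval of the main value, which treats CpGs, tiles or windows as independent. The cause of these shifts was not tested. No paired analysis was possible because the columns of values name no animal.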
